A study of Saccharomyces cerevisiae with 219 samples.

Results

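The genes of the yeast Hsp90 machine, its cochaperones, the Hsp104 family of disaggregases and the mitochondrial chaperonin form a set of 10 genes, listed by gene name. All 10 were found by symbol on both array designs, among 5710 genes on the first design and among 5691 on the second. They are HSP82 (YPL240C, chromosome XVI) and HSC82 (YMR186W, XIII), the inducible and the constitutive cytosolic Hsp90; HSP104 (YLL026W, XII), the cytosolic disaggregase; HSP78 (YDR258C, IV), its mitochondrial relative; HSP60 (YLR259C, XII), the mitochondrial chaperonin; STI1 (YOR027W, XV), AHA1 (YDR214W, IV) and CPR6 (YLR216C, XII), cochaperones that bind Hsp90; and SIS1 (YNL007C, XIV) and YDJ1 (YNL064C, XIV), the J proteins that bring clients to Hsp70.

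Hsp90 is an ATP-driven dimer that takes clients such as kinases and steroid receptors through the last steps of folding. STI1 hands clients over from Hsp70, AHA1 stimulates the Hsp90 ATPase and CPR6 is a cyclophilin that docks on the Hsp90 C terminus. HSP104 threads aggregated proteins through its central pore together with Hsp70 and J proteins, HSP78 does so in the mitochondrial matrix, and HSP60 folds matrix proteins inside a closed chamber. In growing yeast most of these genes are targets of the heat shock factor HSF1, and HSP104 and HSP78 also respond to the general stress factors MSN2 and MSN4.

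RNA of yeast was measured on 219 arrays of 2 colours, each giving for every gene the ratio of the sample (Cy5) to one common reference of stationary and exponential RNA mixed 1:1 (Cy3). Cells were a MATα S288c derivative auxotrophic through ura3-52 and alleles of HIS3, LEU2, TRP1 and LYS2, grown for 7 days in YPD+A to stationary phase, except for the polymerase strains and the exponential lysates described with their results. A menadione course held 6 arrays before treatment (T0) and 2 at each of 16 times from 0.5 to 8 h, and a temperature upshift course held 2 arrays at each of 16 times from 30 to 480 min with no T0 of its own. Finer menadione courses were sampled by the minute (72 arrays and 6 T0 arrays) and by the second (25 arrays), and smaller sets covered polymerase strains (12 arrays), protease-treated lysates (28) and RNA isolation methods (6). Menadione, a quinone that cycles electrons to oxygen, was given at 50 uM per the labels of the seconds course. The labels of the hours, minutes and upshift courses name only times, so their treatments were taken from the methods.

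Values are log2 ratios to the reference after subtraction of the array's median over genes, called levels here. A level compares a gene with itself between arrays and not with another gene, since each ratio depends on the gene's amount in the reference. HSP104 was the mean of 17 probes, whose median SD within an array was 0.98 on the first design and 1.16 on the second. Each other member had 1 probe. HSP82 and HSC82 have near-identical sequences, so cross-hybridization between them cannot be told apart from expression of either. Separate cultures are not stated for most replicates, so p-values measure the spread between these arrays, which may be technical. Called means a Benjamini-Hochberg adjusted p under 0.05 in limma over all genes tested with at least a 2-fold difference, and rose, fell, higher and lower in a test refer to called genes.

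Several arrays matched others or stood against their labels. The S288c arrays at 2 and 30 min of the polymerase set held the values of 2 arrays of the minutes course (100% of genes within 0.01), and its 2 arrays at 0 min those of 2 T0 arrays of the seconds course (99.6 and 99.7%). A pair of lysate arrays labelled stationary, trypsin set, 2 min, followed the 2 upshift arrays at 30 min (r = 0.991 and 0.994 across genes) on a different design. Each T0 array of the hours course followed 1 T0 array of the minutes course (r = 0.977 to 0.981 across genes). The 2 stationary lysate arrays of the trypsin set in buffer were closest, of all arrays, to T0 arrays of the minutes course (r = 0.858 and 0.932). Those T0 arrays are on the other design and are also of unstressed stationary cells. In the lysate set, 5 stationary phase markers minus 5 growth markers gave mean levels of 7.05 and 6.40 for stationary lysates in buffer of the trypsin set and -12.5 to -9.75 for all exponential lysates of the trypsin and proteinase K sets. But 3 arrays labelled stationary in the proteinase K set gave -11.1, -10.8 and -10.5. As a label check of the courses, OYE2, an NADPH dehydrogenase that responds to quinones, lay 4.43 above T0 in menadione arrays of the first 2 h, and 0 of 3 quinone markers tested rose in upshift arrays of the same window.

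In the 8 h courses all 10 members ended above their T0 arrays, but at different times. The 30 min arrays of the upshift were already above T0 for all 10. After menadione 6 of 10 members had no onset before 3.5 h. The 30 min upshift arrays are those that match lysate arrays, and at 60 min the upshift arrays were also above T0 for all 10. For HSP82, T0 levels ran from -2.32 to -1.59 with a median of -1.86 over 6 arrays. After menadione HSP82 was at -2.13 and -2.01 at 0.5 h, at -0.01 and 0.01 at 4 h and at 1.00 and 0.81 at 4.5 h. After the upshift it stood at 1.80 and 2.12 at 30 min and at 4.12 and 4.17 at 480 min. Both upshift arrays at 30 min were thus above every menadione array of the whole 8 h, whose highest HSP82 level was 1.57.

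HSC82, the Hsp90 copy expressed in unstressed cells, moved less. Its 6 T0 arrays spanned -2.09 to -1.56 (median -1.90), and the 11 menadione arrays with a value from 5.5 to 8 h spanned -0.07 to 0.36 (median 0.07). In the 12 upshift arrays of that window HSC82 spanned 2.04 to 2.92 (median 2.36). The 3 groups did not overlap. In such bulk samples, a smaller share of cells that express a gene and less of its RNA per cell cannot be told apart.

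**Figure D1:**
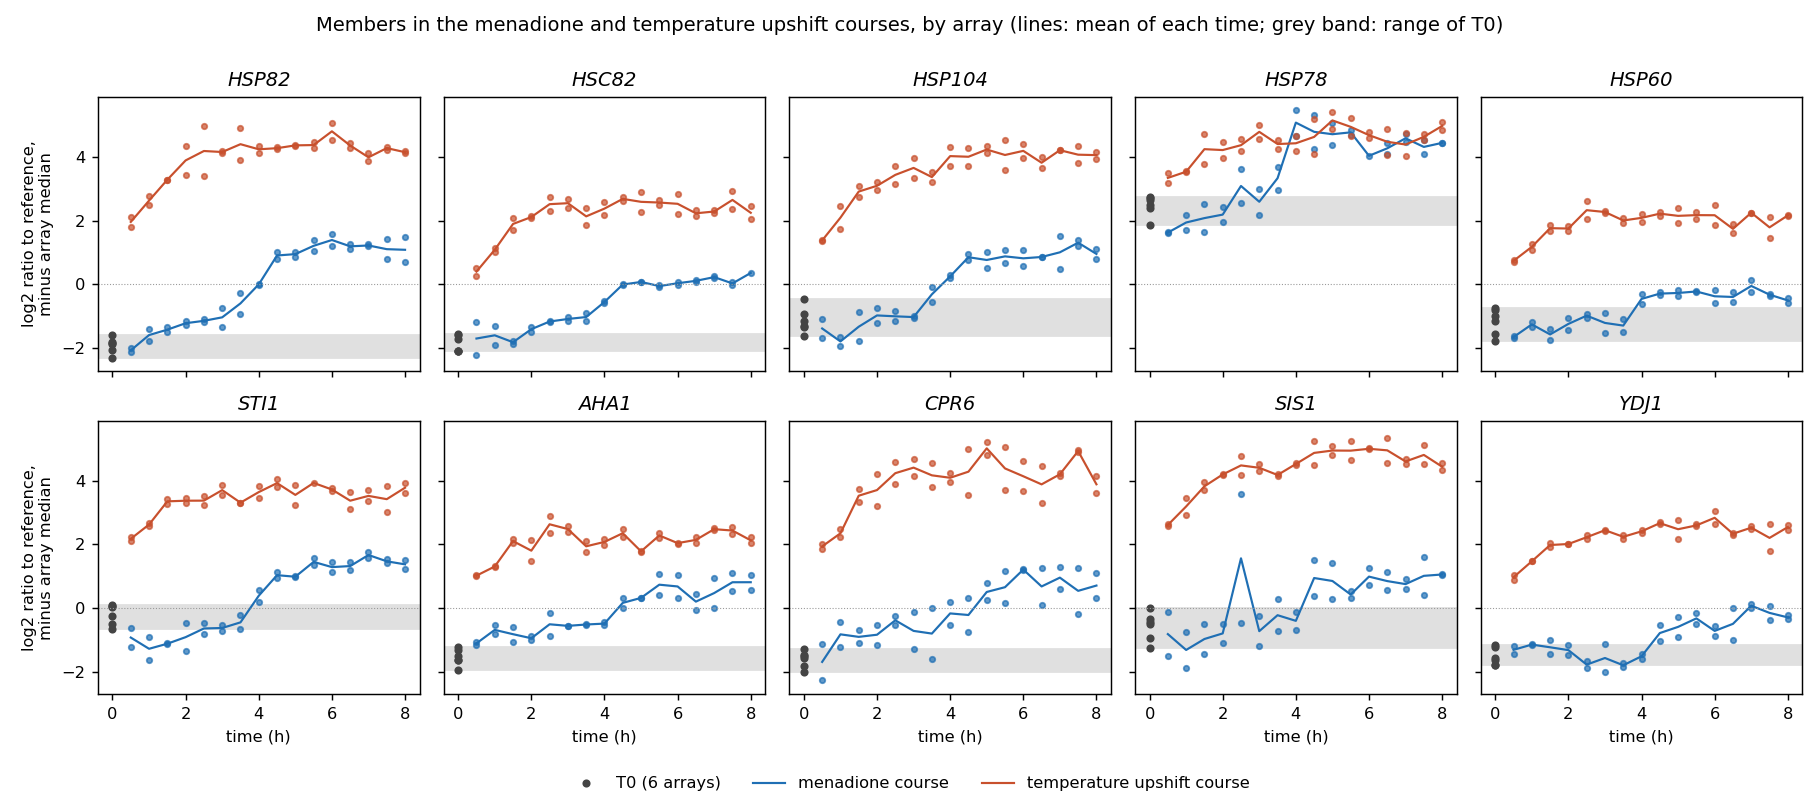
Level (log2 ratio to the reference minus the array median, vertical axis) of the 10 members against time in h, with 1 point per array, lines through the mean of each time, 6 T0 arrays at 0 h and the T0 range as a grey band. The upshift line of HSP82 is at 1.96 at 0.5 h and the menadione line reaches its highest mean of 1.39 at 6 h; HSP78 is the member whose lines meet.

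In the hours course HSP104 had no array above its T0 range in the first 3 h of menadione. The 6 T0 arrays lay between -1.62 and -0.47 (median -1.22), the 8 menadione arrays of 0.5 to 2 h between -1.92 and -0.73 (median -1.44) and the 12 of 5.5 to 8 h between 0.49 and 1.52 (median 0.97). In the upshift the 8 arrays of 0.5 to 2 h were already between 1.37 and 3.22 (median 2.59), and the 12 late arrays lay between 3.60 and 4.52 (median 4.08). The late menadione arrays were clear of T0, overlapped the early upshift arrays at their low end and did not reach the late upshift range.

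The mitochondrial members parted ways. HSP78 had T0 levels from 1.87 to 2.73 (median 2.57), and 1.61 and 1.64 at 0.5 h of menadione lay below all of them. At 4 h after menadione HSP78 reached 5.48 and 4.67, and in the late window 4.03 to 4.84 (median 4.44, 11 arrays). In the late upshift it ranged from 4.03 to 5.22 (median 4.73, 12 arrays). The late ranges of the treatments overlapped for HSP78 alone among the 10. HSP60 showed the smallest menadione change, from -1.77 to -0.75 (median -1.07) at T0 to -0.58 to 0.13 (median -0.28) in the late window, and 1.46 to 2.48 (median 2.13) in the late upshift.

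Among the Hsp90 cochaperones, STI1 stood lower before it stood higher. STI1 T0 levels were -0.65 to 0.10 (median -0.11), and the 8 early menadione arrays were -1.64 to -0.48 (median -1.12). The 12 late menadione arrays were 1.13 to 1.76 (median 1.45), and the 11 late upshift arrays with a value 3.01 to 3.94 (median 3.68). The early menadione arrays overlapped T0 only at its low end, and the late ones were clear of it. AHA1 was the only member whose 8 early menadione arrays, -1.16 to -0.54 (median -0.94), all lay above the T0 arrays, -1.95 to -1.21 (median -1.56). It ended at -0.05 to 1.09 (median 0.55) late after menadione and at 2.03 to 2.55 (median 2.23) late after the upshift. CPR6 was more scattered after menadione, with early arrays from -2.25 to -0.42 (median -1.11) around a T0 range of -2.0 to -1.27 (median -1.53), and late arrays from -0.19 to 1.30 (median 1.13). The late upshift arrays of CPR6, 3.30 to 5.06 (median 4.20), did not overlap these.

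SIS1, the essential J protein that works with HSP104 on aggregates, had T0 levels of -1.24 to 0.00 (median -0.47) and early menadione levels of -1.88 to -0.13 (median -0.92). One array at 2.5 h after menadione read 3.58 where its partner read -0.46, and the mean of 1.56 at that time is therefore not taken as a peak; without that time the highest SIS1 mean was 1.06 at 8 h. Late menadione arrays were 0.31 to 1.61 (median 0.81) and late upshift arrays 4.32 to 5.35 (median 4.66). The late SIS1 ranges of the courses were thus separated by a wide gap. YDJ1, the farnesylated general J protein of the cytosol, stayed at -2.01 to -0.28 (median -1.51) from 2.5 to 5 h after menadione, over its T0 range of -1.78 to -1.17 (median -1.59). It reached -0.99 to 0.13 (median -0.29) in the late window and 1.78 to 3.04 (median 2.57) late in the upshift.

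Time of onset was taken as the first of 2 successive times at which both arrays lay above every T0 array of the hours course. After the upshift it was 30 min, the first time sampled, for all 10 members. This onset rests on the 2 arrays at 30 min that match lysate arrays, and at 60 min both arrays were above T0 for all 10. In the hours course of menadione it was 0.5 h for AHA1, 1 h for CPR6, 1.5 h for HSP82 and 2 h for HSC82. The other 6 followed between 3.5 h and 4.5 h: HSP78 at 3.5 h, HSP104, HSP60 and STI1 at 4 h, and SIS1 and YDJ1 at 4.5 h. The order depended on the array centring. Without it the onset moved to 0.5 h for CPR6 and YDJ1, to 2 h for HSP82 and HSP78 and to 4 h for SIS1, and 4 members in place of 6 had an onset of 3.5 h or later. The minutes course, whose treated arrays are on the first design, gave earlier onsets for most members, as described below.

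The time at which a member's mean first reached 50% of its highest rise over T0 gives a second description of timing. It was 0.5 h in the upshift for HSP82, HSP60, STI1, AHA1, CPR6, SIS1 and YDJ1, 1 h for HSC82 and HSP104 and 1.5 h for HSP78. In the menadione course it was 4 h for HSP82, HSC82, HSP104, HSP78, HSP60 and CPR6, 4.5 h for STI1 and AHA1 and 5 h for YDJ1. SIS1 gave 2.5 h with the array that stood apart and 4.5 h without that time. At the first time sampled the upshift means had covered 32.4 to 61.3% of their highest rise (median 55.8% over 10 members), and the menadione means -43.0 to 18.3% (median -7.53%), a minus sign standing for a mean below T0.

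In the window of 0.5 to 2 h after menadione, 0 of 10 members were called against T0, where 25.7% of 3285 genes tested were called (13.1% higher and 12.6% lower). The median difference of the members was -0.01, and that of all genes -0.02. STI1 differed from T0 by -0.86 (SE 0.24, adjusted p = 0.00373) and AHA1 by 0.65 (SE 0.20, adjusted p = 0.00714), both short of 2-fold. AHA1 was also the 1 member whose arrays did not overlap T0, against 9.82% of all genes. The array medians themselves were higher after menadione by 1.07, so that without centring 5 members passed the call in this window.

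By 5.5 to 8 h after menadione 9 of 10 members were higher than T0, against 10.1% of all genes. HSP82 rose the most, by 3.11 (SE 0.27, 8.65-fold, adjusted p = 9.02e-16), followed by CPR6 with 2.40 (SE 0.30), AHA1 with 2.16 (SE 0.19), HSP104 with 2.10 (SE 0.27), HSP78 with 1.96 (SE 0.29), HSC82 with 1.95 (SE 0.21), STI1 with 1.63 (SE 0.23), SIS1 with 1.42 (SE 0.34) and YDJ1 with 1.21 (SE 0.19). HSP60 differed by 0.86 (SE 0.18, adjusted p = 4.9e-05), which is under 2-fold. The member median was 1.95 and that of all genes -0.26. The late arrays are successive times of numbered series that deviated together. The test took them as independent, so its SE and p-values may be too small. All 10 members were free of overlap with T0 in this window, against 6.44% of all genes, while in the window of 2.5 to 5 h it was 3 members (HSP82, HSC82 and AHA1) against 4.12%. The 5 growth markers were all lower than T0 in the late window (median -2.05), and whether their change had a part in the members' values was not tested.

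After the upshift all 10 members were higher than T0 in both windows, against 6.03% of all genes at 0.5 to 2 h and 9.53% at 5.5 to 8 h. The early differences ran from 1.36 for HSP78 (SE 0.31, adjusted p = 0.000843) through 3.23 for HSC82 and 3.50 for HSP104 to 4.03 for SIS1, 4.48 for CPR6 and 4.85 for HSP82 (SE 0.29, 28.9-fold, adjusted p = 9.33e-23). Late differences ran from 2.20 for HSP78 (SE 0.29) and 3.22 for HSP60 (SE 0.18) to 5.20 for HSP104 (SE 0.27), 5.36 for SIS1 (SE 0.34), 5.84 for CPR6 (SE 0.30) and 6.23 for HSP82 (SE 0.27, 75.3-fold). HSP82 ranked 7 of 3285 genes by difference in each window and CPR6 ranked 9. The member median was 3.18 early and 4.15 late, beside -0.10 and -0.11 for all genes. No member overlapped T0 at any stage, against 4.89, 6.29 and 7.26% of all genes in the early, middle and late windows. These T0 arrays belong to the menadione course, so course and treatment cannot be told apart in these values. Leaving out the 2 upshift arrays at 30 min, which match lysate arrays, kept all 10 calls in the early window, with 5.18 for HSP82 and 1.52 for HSP78.

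**Figure D2:**
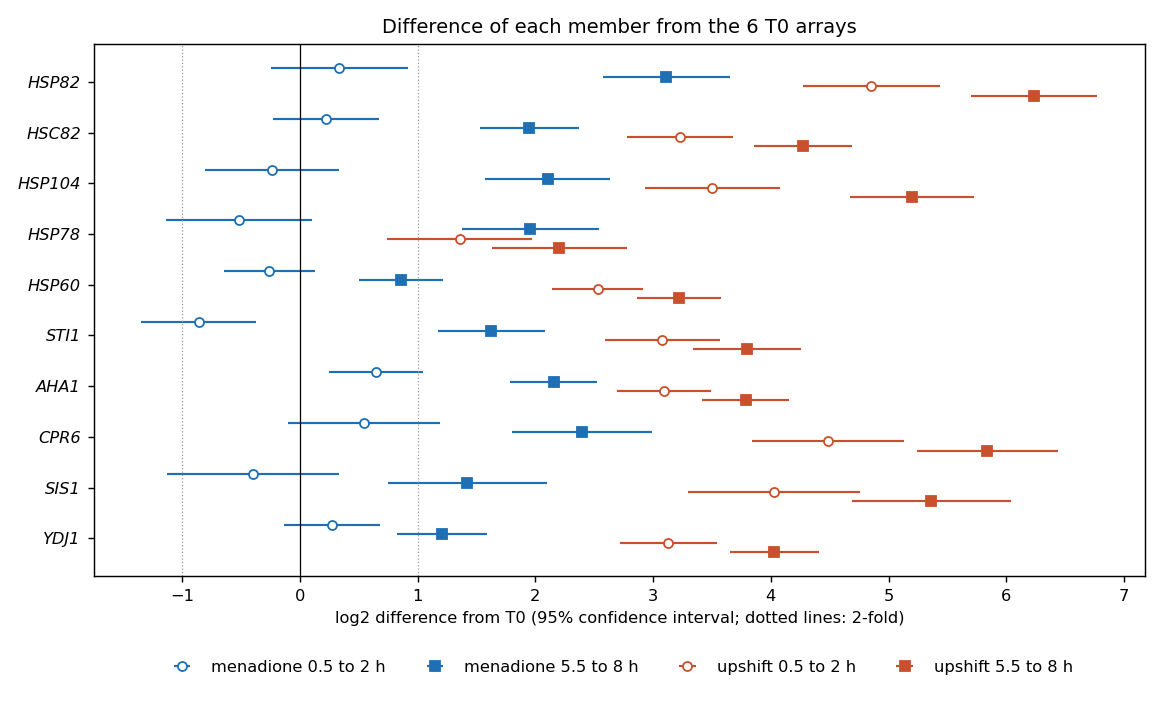
Difference of each member from the 6 T0 arrays on the log2 scale (horizontal axis) with its 95% confidence interval from limma, for 0.5 to 2 h (open circles) and 5.5 to 8 h (filled squares) of menadione (blue) and upshift (orange); dotted lines mark 2-fold. The menadione intervals of 0.5 to 2 h include 0 for 8 members, and the late upshift values run from 2.20 for HSP78 to 6.23 for HSP82.

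Set directly against each other at the same times, the courses differed for all members early and for all but HSP78 late. Each treatment was a course of its own, so course and treatment cannot be told apart here. In the early window all 10 were lower after menadione than after the upshift, against 18.8% of all genes, with differences of -1.87 for HSP78, -4.43 for SIS1 and -4.52 for HSP82; the arrays of all 10 did not overlap, against 12.8% of all genes. In the late window 9 were lower, against 23.9%, and free of overlap, against 14.3%, with -1.63 for AHA1, -3.10 for HSP104, -3.12 for HSP82 and -3.94 for SIS1 (15.4-fold). Without centring AHA1 differed by -0.68 (adjusted p = 0.0412) and was not called. HSP78 differed by -0.25 with a 95% interval of -0.72 to 0.23 (adjusted p = 0.379).

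Between the early and late windows of a course, 9 members rose after menadione, against 6.88% of all genes, with 2.78 for HSP82, 2.48 for both STI1 and HSP78 and 2.34 for HSP104, and YDJ1 at 0.93 below 2-fold. After the upshift 5 rose, against 2.22%: HSP104 by 1.70, HSP82 by 1.38, CPR6 by 1.36, SIS1 by 1.34 and HSC82 by 1.04. Without the 30 min arrays HSC82 was at 0.72 and not called, and the other 4 were called. Without centring 1 member was called, HSP104, and without the second upshift series 2 were. The late minus early change was larger after menadione than after the upshift for 3 members, against 7.21% of all genes: STI1 by 1.77 (SE 0.29, adjusted p = 1.62e-06), HSP78 by 1.63 (SE 0.37, adjusted p = 0.000399) and HSP82 by 1.39 (SE 0.35, adjusted p = 0.00121). For YDJ1 it was 0.04 with a 95% interval of -0.45 to 0.52.

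Levels of the members were correlated over the 16 time means of each course. No such values were computed for pairs of all genes, so these do not set the members apart from other genes. Pearson's r across their 45 pairs was 0.51 to 0.98 in the menadione course (median 0.90) and 0.66 to 0.96 in the upshift (median 0.89). The closest menadione pair was HSP104 and STI1 (0.98) and the loosest SIS1 and YDJ1 (0.51, which includes the SIS1 array at 2.5 h). Among 3643 genes with values at 30 or more of the 32 times of both courses, the genes outside the set most like HSP82 were IQG1 (r = 0.989), HSP10, MRPS17, SSA2 and FES1. HSP104 had the same 5 neighbours in another order, led by FES1 (0.986), an exchange factor of cytosolic Hsp70. For HSP60 they were KAR2 (0.991), the Hsp70 of the endoplasmic reticulum, then HSP10, the lid of the HSP60 chamber, HCH1, APJ1 and CUP1-2. These correlations are descriptions over times that share libraries within a course and a step between the courses.

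In lists of genes outside the set with related roles, single members were called beside others that were not. Over all genes tested, 6.03% rose early and 9.53% late after the upshift, where 8.37% fell late, and after menadione 13.1% rose and 12.6% fell early and 10.1% rose late. Of 5 other Hsp90 cochaperones tested, HCH1, a relative of AHA1, rose after the upshift, by 2.97 early and 4.04 late, and CDC37, which brings kinases to Hsp90, fell by 1.24 early after menadione; 0 of 5 were called late after menadione. Of 8 other J proteins, APJ1 rose after the upshift (1.83 early, 3.12 late) and fell by 2.07 early after menadione, when ZUO1, the J protein on ribosomes, rose by 1.83. Of 5 mitochondrial folding genes tested, 3 rose early and 4 late after the upshift, HSP10 by 3.54 and 4.30, and 2 late after menadione, the Lon protease gene PIM1 by 2.81. Of the 8 CCT chaperonin subunits 0 rose after the upshift and CCT8 fell late by 1.22, whereas CCT4 rose by 1.26 early and 1.71 late after menadione. Of the regulators HSF1, MSN2 and MSN4, MSN4 rose early after menadione by 1.21, and 0 of 3 were called in the other 3 windows against T0.

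The minutes course resolved the first 35 min after menadione, with 72 treated arrays on the first design and 6 T0 arrays on the second, so that design and treatment cannot be told apart against T0. HSC82 was at -2.24 to -1.33 at T0 (median -1.70), -1.41 to 0.24 from 1 to 10 min (median -0.54, 20 arrays) and -0.55 to 0.38 from 26 to 35 min (median -0.01, 19 arrays). For HSP82 these ranges were -2.15 to -1.42 (median -1.99), -1.98 to 0.99 (median -0.71, 19 arrays) and -0.76 to 1.12 (median -0.33). AHA1 went from -1.84 to -1.10 at T0 (median -1.37) to -0.69 to 0.31 from 1 to 10 min (median -0.12) and -0.70 to 0.18 from 26 to 35 min (median -0.31). All treated arrays of AHA1 lay above its T0 arrays. HSC82 overlapped T0 only through 1 array at 1 min, at -1.41, and HSP82 overlapped it in the first 10 min.

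HSP104 went from a median of -1.20 at T0 to 0.36 in the first 10 min. Its means were 0.27 at 30 min and 0.51 at 60 min in this course but -1.39 at 0.5 h and -1.79 at 1 h in the hours course. Means at 30 min also lay above those of the hours course at 0.5 h for HSP82 (-0.37 and -2.07), HSC82 (-0.03 and -1.7) and STI1 (0.24 and -0.92). The same held for SIS1 (0.14 and -0.81), AHA1 (-0.29 and -1.105), CPR6 (-0.73 and -1.69), HSP60 (-0.77 and -1.655) and HSP78 (2.39 and 1.62). YDJ1 went the other way (-1.76 and -1.31). The arrays of the hours course are on the second design, and course and design cannot be told apart here. From T0 to the first 10 min of the minutes course, the median of CPR6 went from -1.57 to -0.78, that of SIS1 from -0.50 to -0.09 and that of STI1 from 0.04 to -0.09. HSP60 had medians of -0.92 and -0.45, HSP78 of 2.54 and 2.49 and YDJ1 of -1.54 and -1.61. The medians of STI1, HSP78 and YDJ1 in the first 10 min lay within the range of their T0 arrays, and those of HSP104, CPR6, SIS1 and HSP60 above it. Measured against the T0 arrays of this course, a comparison chosen after seeing the data, both arrays of 2 successive times lay above T0 from 1 min for AHA1 and CPR6, 2 min for HSP82, HSC82 and HSP104, 3 min for SIS1 and 22 min for HSP78, and at no time for HSP60, STI1 and YDJ1. Against the T0 arrays of the hours course, SIS1 came at 18 min, STI1 at 21 min and HSP78 at 32 min. The quinone markers, as a check of the treatment, were not higher: their mean level had a median of 0.30 over the T0 arrays and of -1.18 over the arrays of 1 to 10 min.

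**Figure D3:**
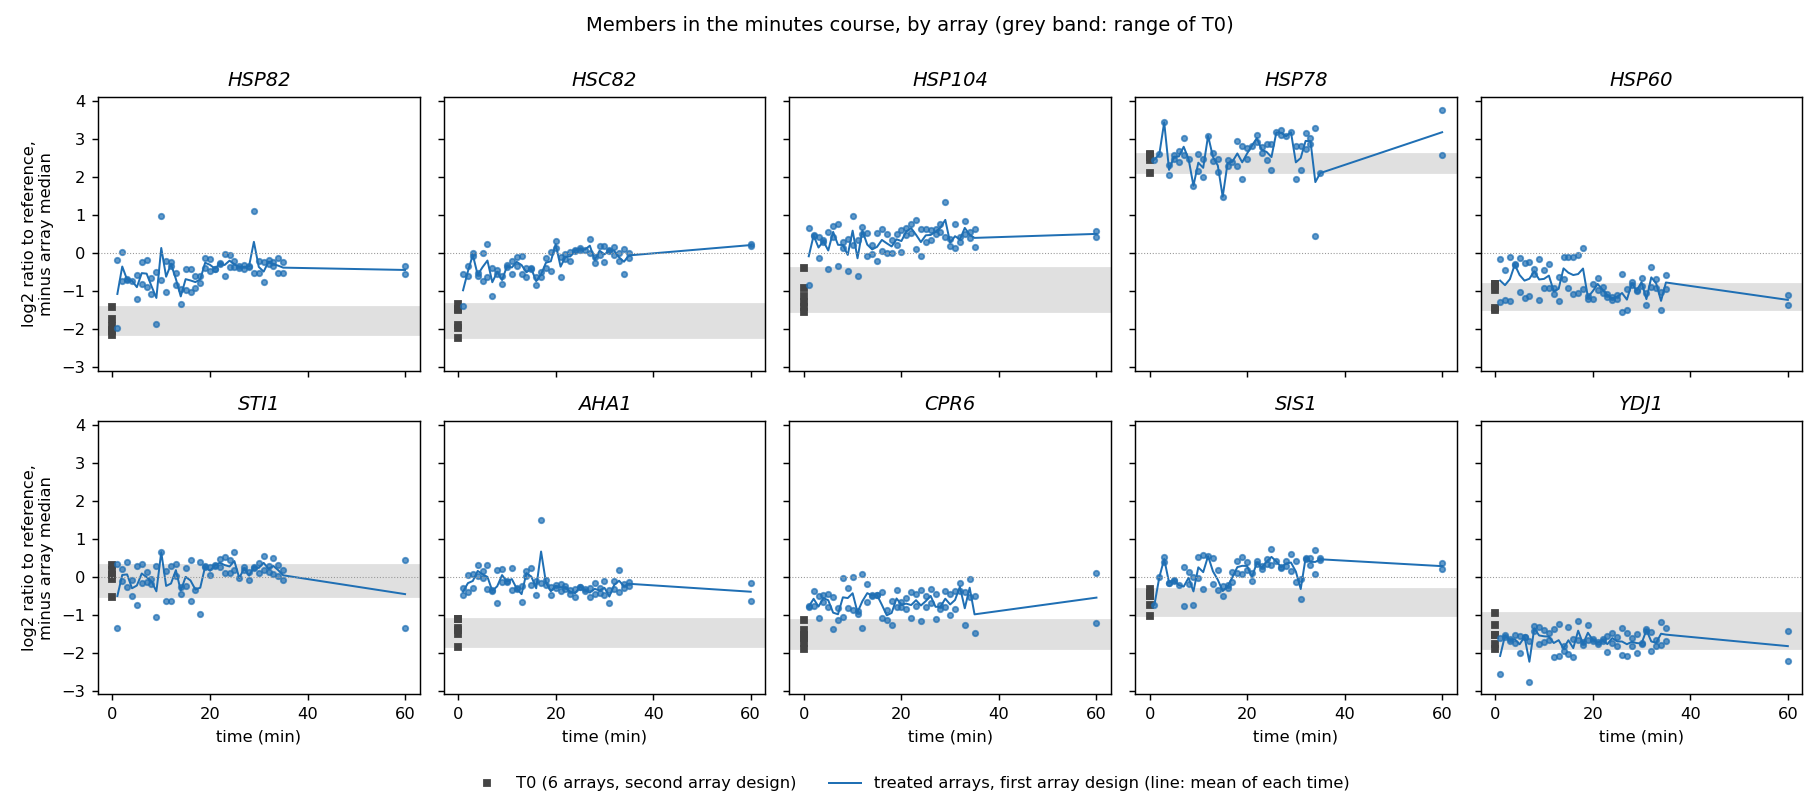
Level of the 10 members (log2 ratio to the reference minus the array median, vertical axis) against minutes after menadione, with 72 treated arrays (blue, first array design) and 6 T0 arrays (dark squares, second design; range as a grey band). HSC82 lies above its T0 band except for 1 array at 1 min, at -1.41, and YDJ1 stays in or near its band.

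Within the treated arrays, which share a design, no member passed the call. From 1 to 10 min against 26 to 35 min, 0 of 10 members were called and 0.176% of 3986 genes were (7 genes; 811 at an unadjusted p under 0.05). HSC82 differed by 0.48 (SE 0.10, adjusted p = 0.00772) and SIS1 by 0.37 (SE 0.12, adjusted p = 0.0428), both under 2-fold. The member median was 0.23 and that of all genes 0.00.

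The seconds course compared 18 arrays of 10 to 180 s with 6 T0 arrays on one design. HSP82 lay at -2.72 to -1.87 at T0 (median -2.53) and at -3.26 to -1.97 after menadione (median -2.77). HSP104 T0 arrays spread widely, from -2.49 to -0.52 (median -0.83), around treated arrays of -1.65 to -0.90 (median -1.37). Both genes overlapped between the groups, and so did the other 8. In limma 0 of 10 members were called, where 3.19% of 4420 genes were (141 genes). The member median was -0.10 and the largest difference that of YDJ1, -0.48 (SE 0.21, adjusted p = 0.134). Without the 2 T0 arrays that match polymerase arrays YDJ1 was at 0.03 and HSP104 at -0.60 (adjusted p = 0.0175), and 0 members were called. The array medians were 1.19 higher after menadione than at T0, and without centring 5 members were called, with HSC82 at 1.02 (adjusted p = 0.000973) and HSP104 at 1.16 (adjusted p = 0.00403).

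The polymerase set used a MATa ura3-52 rpb1-1 strain, whose RNA polymerase II is inactivated at high temperature, a MATα ura3-52 RPB1 parental and S288c, which per the methods were all grown to stationary phase for longer and at a lower temperature than the other cultures and then held at the non-permissive temperature before menadione. The S288c arrays hold values of arrays from courses described without that hold, so whether their cells had it cannot be told from these files. The set had 2 arrays of each strain at 0 min and 1 at 2 and at 30 min. HSP82 at 0 min was 2.97 and 2.65 in the parental, 2.49 and 2.03 in rpb1-1, and -1.97 and -2.13 on the S288c arrays that match the seconds course. At 2 and 30 min it was -0.50 and -0.28 in the parental, 4.18 and 4.02 in rpb1-1 and -0.74 and -0.21 in S288c. HSP104 was at 2.21 and 0.57 at 0 min and at 0.32 and 0.69 later in the parental, and at 1.29 and 1.33 and then 3.07 and 3.18 in rpb1-1. At 2 and 30 min rpb1-1 was above the other strains for both genes, while at 0 min it was below the parental for HSP82 and within its range for HSP104.

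YDJ1 had the widest gap between times in the parental, from 3.55 and 2.86 at 0 min to -1.94 and -1.43 later, while in rpb1-1 it had no value at 0 min and 3.33 and 3.02 later. HSP60 was at 3.19 and 3.42 and then at -0.92 and -1.04 in the parental, and at 1.35 and 1.29 and then at 2.22 and 2.51 in rpb1-1. SIS1 was at 3.60 and 1.67 and then 0.46 and 0.15 in the parental, and at 1.70 (1 array with a value) and then 4.07 and 4.22 in rpb1-1. In the parental both arrays of 0 min were above both later ones for these 3 genes and for HSP82, HSC82, STI1, AHA1 and CPR6, but not for HSP104 and HSP78. The share of all genes with such a separation was not computed, so it does not set the members apart from other genes. The parental array at 30 min was closest, of all arrays, to one of the minutes course (r = 0.925 across genes).

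Other measures moved with these values. In the parental the mean of 5 stationary phase markers had a median of -0.49 at 0 min and was 1.91 and 1.96 at 2 and 30 min, and that of 5 growth markers went from 0.24 to -2.51 and -2.53. In rpb1-1 the stationary markers went from -0.34 to 0.95 at both times and the growth markers from 0.09 to -0.94 and -0.96. On the S288c arrays they went from -1.09 to 1.80 and 1.94 and from 1.45 to -2.45 and -2.40. The rpb1-1 arrays at 0 min had 2264 and 941 usable values, fewer than any other array of the set. The part of the markers and of the missing values in the members' differences was not tested.

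**Figure D4:**
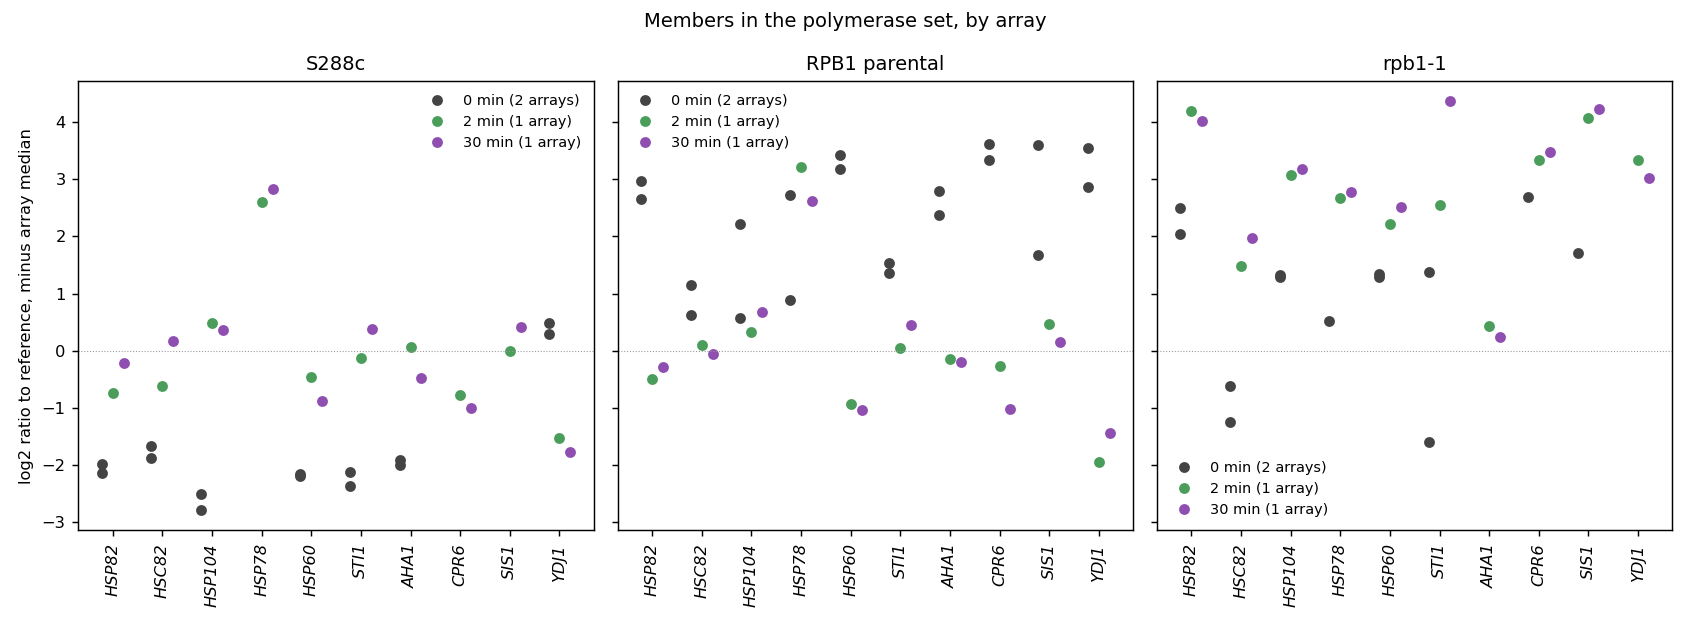
Level of the 10 members (log2 ratio to the reference minus the array median, vertical axis) on each of the 12 arrays of the polymerase set, by strain (panels) and time (colours). HSP82 goes from 2.97 and 2.65 at 0 min to -0.28 at 30 min in the parental and stands at 4.02 at 30 min in rpb1-1.

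In the test over all 12 arrays rpb1-1 was compared with the mean of the RPB1 parental and S288c. It was higher for 3 of the 7 members tested, against 11.8% of 1732 genes. They were HSP82 (3.21, SE 0.79, adjusted p = 0.0174), HSP104 (2.30, SE 0.63, adjusted p = 0.0256) and YDJ1 (4.84, SE 0.73, adjusted p = 0.0032, from 2 rpb1-1 arrays, both after 0 min). The test takes the same change over time for all strains, whereas HSP82 stood lower after 0 min in the parental and higher in rpb1-1. YDJ1 was lower at 2 min (-3.46, SE 0.69, adjusted p = 0.0157) and at 30 min (-3.48, SE 0.69, adjusted p = 0.0113) than at 0 min, the 1 member called at each time, against 6.81 and 8.27% of genes. HSP78, CPR6 and SIS1 had too few values to be tested. Without the S288c arrays 0 members were called in the 3 tests, with HSP82 at 1.97 (adjusted p = 0.274) and HSP104 at 1.27 (adjusted p = 0.296) in rpb1-1 against the parental, and YDJ1 was not tested. Leaving out either later rpb1-1 array also left 0 called.

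Lysates of stationary and of exponentially growing cells were split into a tube with buffer and a tube with trypsin, proteinase K or Qiagen Protease, so that the tubes of a lysate share their cells. As the marker levels show, only the trypsin set separated the growth phases the way it was labelled. In it HSP78 stood at 2.62 and 3.41 in stationary and at -3.24 and -3.47 in exponential lysates in buffer, STI1 at 0.48 and 0.73 against -2.22 and -2.57, and HSP104 at -0.29 and -0.50 against -3.11 and -2.84. HSP60 went the other way, -1.21 and -1.28 against 1.08 and 1.30, as did HSP82, -1.88 and -1.68 against 0.31 and 0.35, HSC82, -1.56 and -1.49 against 0.14 and -0.10, and YDJ1, -0.89 and -1.47 against 1.00 and 1.27. For each of these 7 genes the 2 stationary arrays lay clear of the 2 exponential ones. No share over all genes was computed for this, so it does not set the members apart from other genes. In the fit over all lysate groups 54.6% of 1711 genes were called between these groups.

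In the fit over all lysate groups, stationary against exponential lysates of the trypsin set in buffer gave HSP78 higher by 6.37 (SE 1.08, adjusted p = 0.000586), against 25.1% of 1711 genes called higher, and HSP60 lower (-2.44, SE 0.89, adjusted p = 0.0272), against 29.6% called lower. STI1 was at 3.00 (adjusted p = 0.0587), HSP104 at 2.58 (adjusted p = 0.0583) and YDJ1 at -2.31 (adjusted p = 0.0557). In a fit of the trypsin lysates alone, chosen after seeing the marker levels, HSP104, HSP78 and STI1 were called higher and HSP82, HSC82 and HSP60 lower, with 1164 of 1829 genes called in either direction. Pooled over the 3 enzyme sets, arrays that go against their labels included, 0 members were called and 0.274% of 2557 genes were, with HSP78 at 2.74 (adjusted p = 0.0596), STI1 at 1.93 (adjusted p = 0.0647) and HSP104 at 1.55 (adjusted p = 0.0904); 1018 genes had an unadjusted p under 0.05. With tubes of one lysate as a random block, HSP78 (adjusted p = 0.045) and STI1 (adjusted p = 0.048) were called higher, with 457 of 2557 genes called.

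**Figure D5:**
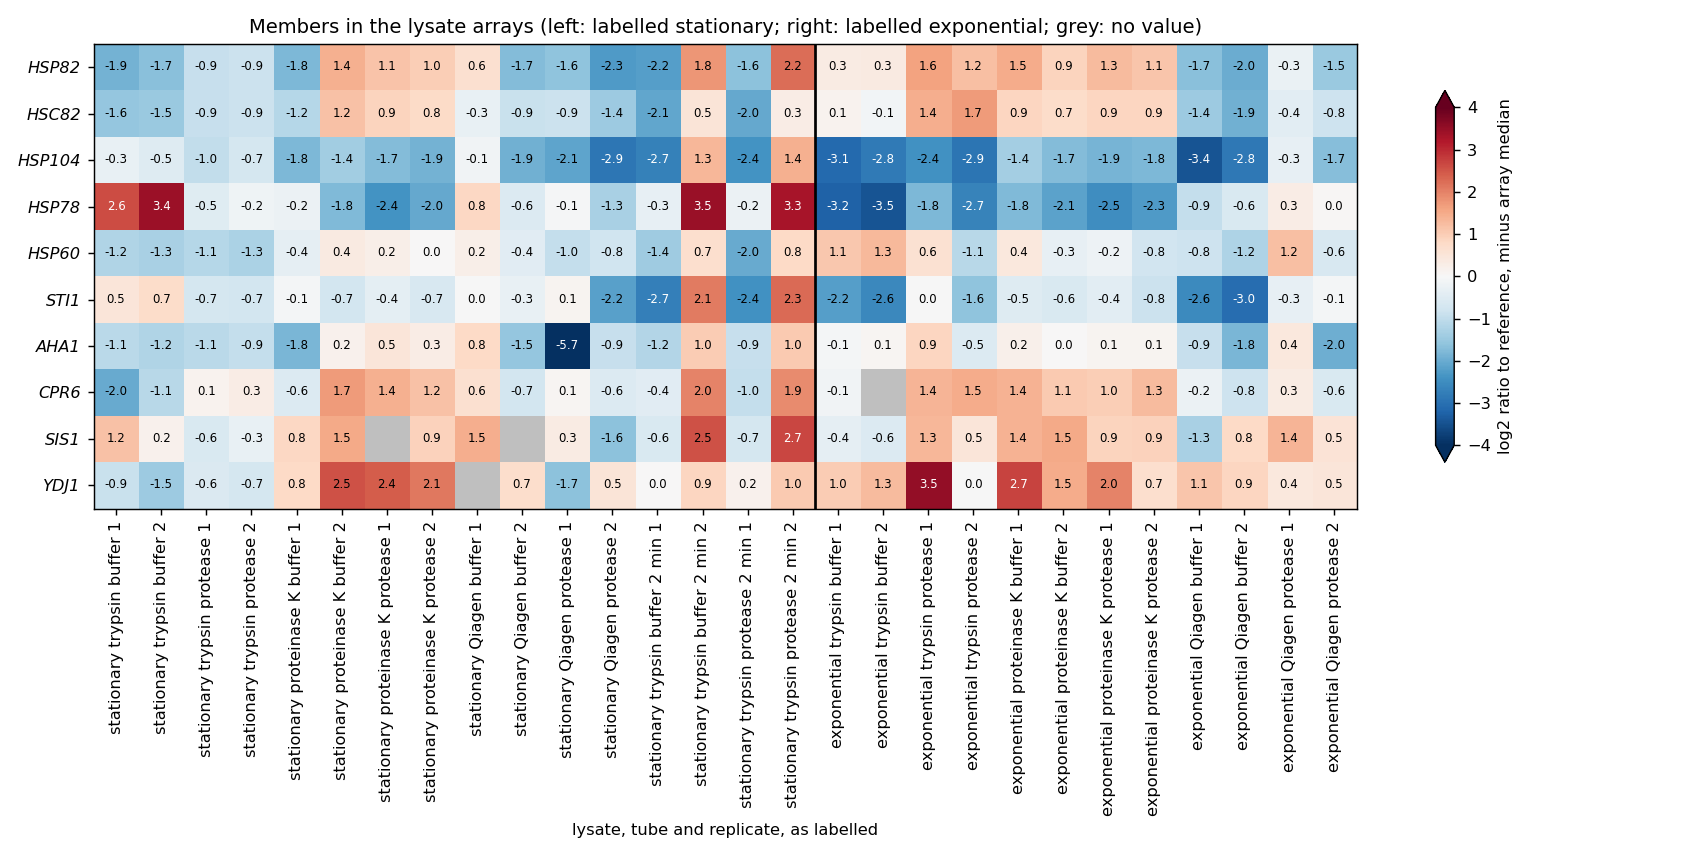
Level (colour and printed value, log2 ratio to the reference minus the array median) of the 10 members on the 28 lysate arrays, stationary left and exponential right of the line as labelled, with missing values grey. HSP78 is at 2.62 and 3.41 in stationary lysates in buffer of the trypsin set, and 3 stationary arrays of the proteinase K set have levels like the exponential ones.

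In the stationary lysate HSP78 was at -0.48 and -0.16 with trypsin and at 2.62 and 3.41 in buffer. STI1 went from 0.48 and 0.73 to -0.70 and -0.74, and CPR6 from -2.02 and -1.12 to 0.13 and 0.29. The marker contrast of these arrays was 0.77 and 0.36 with trypsin and 7.05 and 6.40 in buffer, and its part in the members' values was not tested. Before centring, their array medians were 2.39 and 2.24 with trypsin and -1 and 1.09 in buffer. Centring removes such a shift, so these levels are relative to the median gene. A change shared by most genes does not show in them. In the exponential lysate trypsin arrays gave 1.44 and 1.71 for HSC82, from 0.14 and -0.10, and 1.62 and 1.19 for HSP82, from 0.31 and 0.35. In each of these genes the tubes with and without trypsin did not overlap. They are only some of the members, and the share of all genes with such a separation was not computed. The separation therefore does not set them apart from other genes.

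In the fit over all lysate groups 0 members were called between tubes for any enzyme and growth phase, nor was any gene (0%), although 600 of 1893 genes had an unadjusted p under 0.05 for trypsin in stationary lysates. HSP78 came to -3.33 there (SE 1.08, adjusted p = 0.0965) and CPR6 to 1.78 (SE 0.96, adjusted p = 0.203), both on centred levels. In the fit of the trypsin lysates alone HSP78 was lower (adjusted p = 0.00257) and CPR6 higher (adjusted p = 0.0242), with 865 of 1966 genes called, and the trypsin change differed between stationary and exponential lysates for HSP78 (-4.45, adjusted p = 0.00526), STI1 (-2.91, adjusted p = 0.0324) and SIS1 (-2.49, adjusted p = 0.0364), with 486 of 1420 genes called. Pooled over enzymes, 0 members and 0 of 2557 genes (0%) were called for protease in stationary lysates, in exponential lysates or in the difference between them, with 179, 38 and 143 genes at an unadjusted p under 0.05.

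In the proteinase K set, HSP82 was at 1.44, 1.13 and 1.00 on the 3 arrays labelled stationary whose markers went against the label and at 0.88 to 1.48 on the 4 exponential ones. The remaining stationary array, in buffer, had HSP82 at -1.81. In the Qiagen set AHA1 read -5.67 on 1 stationary protease array and between -1.97 and 0.80 on the other 7. The 2 stationary arrays of 2 min that follow the upshift arrays carried SIS1 at 2.55 and 2.67 and HSP78 at 3.46 and 3.31 in buffer and trypsin, against -0.60 and -0.70 and -0.34 and -0.24 on the other pair of the same labels.

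In all, 3 methods of RNA isolation were compared on unstressed stationary cells, with 2 arrays each. The mean of 5 growth markers had a median of 0.83 with modified Gentra, -0.08 with hot phenol and -0.90 with proteinase K. That of 5 stationary phase markers was 0.51, 0.07 and -0.14. On the T0 arrays of the hours course, on the other design, these medians were -4.02 and 2.00. The 2 hot phenol arrays correlated by r = 0.436 across genes, and neither was closer to any other array. The part of these markers in the members' values was not tested. HSP82 was at -1.42 and -1.32 with the modified Gentra method, at -0.09 and -0.23 with hot phenol and at -2.13 and -2.34 with proteinase K during isolation. HSC82 was at -1.43 and -1.16, -0.04 and 0.06, and -1.42 and -1.35. Both Hsp90 genes thus stood higher with hot phenol, and HSP82 alone stood lower with proteinase K. Against the modified Gentra method, hot phenol gave 2 of 9 members tested as higher, HSC82 by 1.30 (SE 0.17, adjusted p = 0.00993) and HSP82 by 1.21 (SE 0.16, adjusted p = 0.0112), against 7.84% of 4185 genes. Proteinase K gave 2 as lower, AHA1 (-1.34, SE 0.33, adjusted p = 0.0281) and HSP104 (-1.02, SE 0.18, adjusted p = 0.00966), against 15.6% of 4190 genes. By its first probe alone HSP104 differed by -0.48 and was not called. HSP82 at -0.87, SIS1 at 0.84 and HSP78 at 0.76 had adjusted p under 0.05 with proteinase K but less than a 2-fold change. STI1 was not tested, for a missing value. With either hot phenol array or the first modified Gentra array left out 0 members were called for hot phenol, and 0 for proteinase K without its first array.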

How the data were processed

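The authors scanned spotted 70-mer arrays of 2 designs and deposited, for most arrays, linear ratios of Cy5 over Cy3, and for the seconds course log2 ratios scaled to added control RNAs. Linear ratios were put on the log2 scale; values at or below 0 and the marker 100000 were left out. A gene's value was the mean of its probes, less the array's median over genes. Usable values per array numbered 941 to 6605, and the number of arrays limits the precision. The tests used limma (version 3.58.1, R version 4.3.3) on group means, over genes with a value on at least 80% of arrays and 2 values per group, with Benjamini-Hochberg adjustment. Python 3.11.15, pandas 2.3.3, NumPy 2.4.6 and Matplotlib 3.10.9 served for the rest, and the fits were tested on simulated data. Log2 values had been planned for all arrays, and most files held linear ratios. Members and lists were chosen with earlier results of these data known. Named genes were all members, the called gene with the largest difference in each direction of each related list, and the 5 genes most correlated with HSP82, HSP104 and HSP60. Alternatives covered centring, quantile normalization, filters, the fold minimum, blocks, means per time and left-out arrays. Arrays of the same label number shared deviations from the group means in the courses with numbered series. These correlated by over 0.1 in 15 of 15 pairs of neighbouring times in the hours course (median 0.425), 34 of 35 in the minutes course (median 0.37) and 12 of 15 in the upshift (median 0.286). In the lysate set 1 of 7 pairs did so, and in the isolation set 0 of 3. The main tests did not include the label numbers and took the arrays of a series as independent. Their SE and p-values may therefore be too small.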

Additional observations from a re-analysis of the deposited data

Results flagged for a closer look

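Among 70 gene groups of 4 to 10 arrays, 4 had an array far from the others, and chance flags about 1 in 20 groups. HSP78 was at 2.11 on 1 T0 array of the minutes course, where the other 5 were at 2.47 to 2.61. STI1 was at -2.16 on a stationary Qiagen Protease array, with the other protease-treated stationary lysates at -0.74 to 0.09. AHA1 was at -5.67 on the other stationary Qiagen Protease array of that kind, against -1.08 to 0.49. YDJ1 was at 2.71 in an exponential proteinase K lysate in buffer, against 0.87 to 1.49. The change from 0.5 to 2 h to 5.5 to 8 h differed between menadione and upshift for HSP82 (1.39, adjusted p = 0.00121), HSP78 (1.63, adjusted p = 0.000399) and STI1 (1.77, adjusted p = 1.62e-06) in limma. Causes were not tested.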

How the results depend on the processing

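Of all values recomputed under alternatives, 2106 kept their direction and side of the threshold, 61 gained and 42 lost it, and 2 reversed. Counts of members called are given here, and the causes of the shifts were not tested. Without centring, the count was 5 in place of 0 for early menadione, 5 in place of 0 for the seconds course, where HSC82 came to 1.02 (adjusted p = 0.000973) and HSP104 to 1.16 (adjusted p = 0.00403), 1 in place of 5 for late against early upshift, 1 in place of 3 for rpb1-1, 2 in place of 0 for stationary against exponential lysates and 1 in place of 2 for hot phenol. Quantile normalization gave 1 for early menadione, 7 in place of 3 for the difference of the late minus early changes and 0 in place of 2 for proteinase K isolation. A value on every array gave 1 for that difference, 0 in place of 1 for both polymerase times and 2 for the lysate phases. With no minimum fold it was 2 for early menadione, 10 for late against early upshift, 5 for the difference, 2 in place of 0 for the minutes course and 5 for proteinase K isolation. The replicate block gave 2 for the lysate phases (consensus correlation 0.418) and moved no other count by over 1.5 times, and a mean per enzyme gave 1. Trypsin lysates alone, chosen after seeing the data, gave 6 for the phases, 2 for protease in stationary lysates and 3 for its difference between phases. Without the S288c arrays, also chosen after seeing the data, all 3 polymerase counts were 0, and with HSP104 by 1 probe proteinase K isolation gave 1. Leaving out arrays in turn gave 0 to 1 for early menadione (1 without the second hours series), 2 to 4 for late against early upshift (2 without its second series), 0 to 1 and 0 to 2 for the polymerase set at 2 and 30 min (0 without the parental array of that time), 0 to 5 for rpb1-1 (0 without either later rpb1-1 array), 0 to 3 for hot phenol (0 without the first modified Gentra array or either hot phenol array) and 0 to 1 for proteinase K isolation (0 without its first array).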
